A study of Arabidopsis thaliana with 12 samples.

Results

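The 7 genes of Arabidopsis thaliana described here, in roots at pH 6 and pH 4.5, were grouped under the label early stress regulators. They are WRKY53 (AT4G23810), WRKY22 (AT4G01250), STZ (AT1G27730), AR781 (AT2G26530), AT1G19020, AT2G22880 and AT5G64870. These are 7 of the 13286 genes that the array's annotation names through a probe set for a single gene. Each has 1 probe set, and all 7 passed the filter on low signals, which uses the mean over all arrays. At pH 6, AT5G64870 at both times and AT2G22880 at 8 h had means under the filter's cut. These genes passed through their other groups. They were selected on their measured log2 differences between the pH values and between the times on these same arrays. Their values are therefore given as a description, with no p-value.

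Total RNA of 12 samples came from roots of Col-0 plants labelled as 3.90 weeks old. The plants were germinated on 0.7% agarose and moved to non-sterile hydroponics at 23 °C, in a nutrient solution whose phosphate stock had pH 5.6. No transgene and no treatment other than pH is named. Each of the 4 groups had 3 samples on 3 Affymetrix ATH1 arrays: pH 6 for 8 h, pH 4.5 for 8 h, pH 6 for 1 h and pH 4.5 for 1 h. No group was sampled before the pH treatment, so a pH difference may lie in either of its 2 groups. Nothing in the labels ties replicates to cultures of their own, so p-values cover the spread among these arrays, and that spread may be technical. Whole roots were used, and fewer cells of a type cannot be told apart from less RNA per cell.

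WRKY proteins are plant transcription factors that bind W-box DNA and control many genes of defence and senescence. WRKY22 acts downstream of a kinase cascade that the bacterial protein flagellin sets off, and WRKY53 is best known as a regulator of the onset of leaf senescence and of defence. STZ, also named ZAT10, is a zinc-finger transcription factor that is induced by salt, cold and other stresses and can repress transcription. Transcripts of such regulators are known to change within minutes to hours of a stress. Of the 7 genes, these 3 are known regulators. The annotation used here gives AR781 only a symbol and the other 3 genes only a locus code, so no role is stated for these 4.

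Array signals are on a linear scale in which the median probe set had a signal of 38.2 to 40.2 on the 12 arrays. With 3 arrays in a group precision is limited: a log2 difference of 2 groups had a standard error of 0.14 in the median. Pearson r of the log2 signals was 0.973 to 0.986 within groups and 0.948 to 0.976 between them. At 1 h the median signal was 40.1 ± 0.182 (SD, n = 3) at pH 6 and 38.2 ± 0.0589 at pH 4.5, with no overlap. The 3' to 5' signal ratio of actin, a sign of RNA integrity, was 2.31 ± 0.0446 at pH 6 and 2.96 ± 0.425 at pH 4.5 at 1 h, also without overlap. That of GAPDH ran the other way, at 1.16 ± 0.0270 at pH 6 and 0.946 ± 0.0575 at pH 4.5. In older control probe sets of the same arrays both ratios were lower at pH 6 at 1 h. Actin there had 14.6 ± 4.02 at pH 6 and 19.9 ± 1.51 at pH 4.5, without overlap. GAPDH there had 1.11 ± 0.169 at pH 6 and 1.37 ± 0.111 at pH 4.5, with overlap. At 8 h these measures overlapped between the pH values. Their part in the differences at 1 h was not tested, except that centring each array on its median moved the log2 differences of the 7 genes at 1 h by 0.062.

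Tissue identity was checked with 17 root markers and 16 markers of green tissue, of which 2 and 3 have a named probe set. EXPA7 and EXPA18, expansins of root hairs, had signals of 54.6 to 158 and 72.8 to 120.2 over the 12 arrays. The green markers RCA, LHCB4.1 and PSAN, which serve photosynthesis, were also measured above 0. Their summed signal was 67.9 to 97.6 at pH 6 and 59.7 to 75.7 at pH 4.5 after 8 h, and 156 to 185 at pH 6 and 116 to 181 at pH 4.5 after 1 h. The labels name roots alone, and the share of green tissue, if any, was not tested.

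WRKY53 had the opposite order of the pH values at the 2 times. After 8 h its signals were 86.6, 93.7 and 81.0 at pH 6, against 136, 132 and 116 at pH 4.5. After 1 h they were 158, 171 and 145 at pH 6, against 75.5, 63.7 and 67.1 at pH 4.5. Thus all pH 6 arrays were below all pH 4.5 arrays at 8 h and above all of them at 1 h. The log2 difference, pH 6 minus pH 4.5, was -0.54 ± 0.11 (SE) at 8 h and 1.15 ± 0.11 at 1 h. From the highest to the lowest mean, the groups ranked as pH 6 at 1 h, pH 4.5 at 8 h, pH 6 at 8 h and pH 4.5 at 1 h, and no neighbours in this order overlapped.

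WRKY22 was higher at pH 6 at both times, by less at 8 h. Its signals after 8 h were 59.8, 61.5 and 56.3 at pH 6, against 48.8, 48.0 and 40.6 at pH 4.5. The 1 h signals were 79.2, 69.8 and 67.0 at pH 6, against 37.7, 42.8 and 40.3 at pH 4.5. Every pH 6 array lay above every pH 4.5 array of the same time. The log2 difference was 0.35 ± 0.13 at 8 h and 0.78 ± 0.13 at 1 h. Only the pH 4.5 groups, 45.8 ± 4.53 at 8 h and 40.3 ± 2.54 at 1 h, overlapped among neighbours in the order of the group means.

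STZ, in contrast to both WRKY genes at 1 h, was lower at pH 6 at both times. Its signals after 8 h were 59.1, 59.0 and 74.1 at pH 6, against 224, 191 and 200.5 at pH 4.5. After 1 h they were 189, 124 and 162 at pH 6, against 379.7, 401 and 428 at pH 4.5. No pH 6 array reached a pH 4.5 array of its time. The log2 difference was -1.62 ± 0.13 at 8 h and -1.35 ± 0.13 at 1 h, which are folds of 3.08 and 2.54. The 4 groups formed a sequence without overlap, with pH 4.5 at 1 h highest and pH 6 at 8 h lowest.

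**Figure D1:**
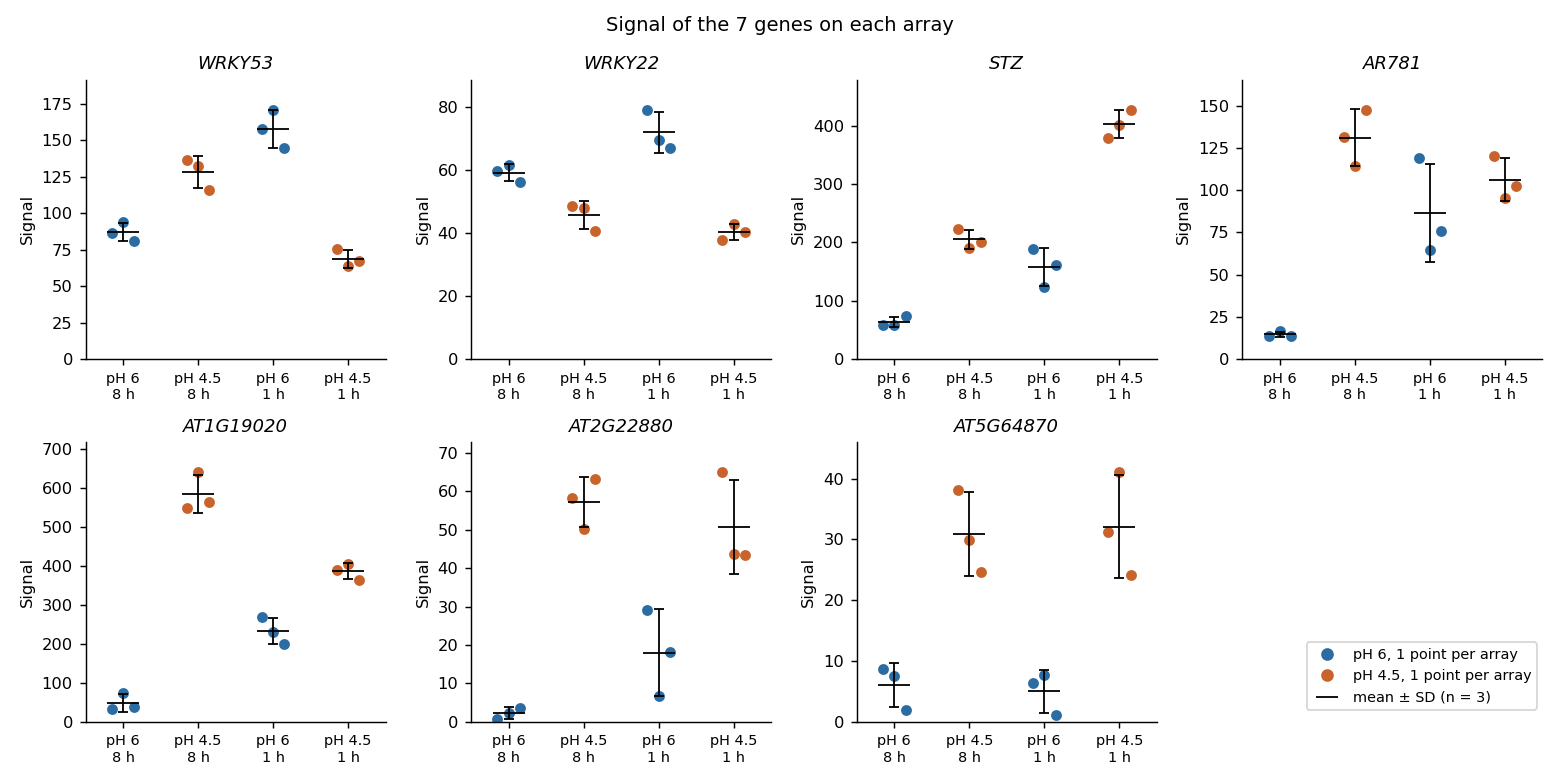
Signal (linear scale, axis from 0) of each of the 7 genes on every array, with groups along the x axis; points are single arrays and black bars the mean ± SD of 3 arrays. At 8 h all pH 6 arrays lie below the pH 4.5 arrays in every panel but WRKY22, where they lie above, and at 1 h WRKY53 and WRKY22 have all their pH 6 arrays above pH 4.5.

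AR781 stood apart in a single group. Its signals were 13.8, 16.4 and 13.6 at pH 6 after 8 h, against 131, 114 and 148 at pH 4.5. After 1 h it had 119, 64.6 and 75.6 at pH 6, against 120.3, 95.6 and 102 at pH 4.5, and these groups overlapped. The log2 difference was -2.86 ± 0.18 at 8 h, a fold of 7.26, and -0.32 ± 0.18 at 1 h, which does not show that the gene was equal at both pH values. Apart from the group at pH 6 and 8 h, each group overlapped its neighbour in the order of means.

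AT1G19020 was lower at pH 6 at both times. After 8 h its signals were 33.5, 73.6 and 37.7 at pH 6, against 549.9, 640.4 and 564 at pH 4.5. The arrays at 1 h gave 269, 229.6 and 200.3 at pH 6, against 390.4, 405 and 365 at pH 4.5. Neither time showed overlap, and the distance between the pH values was far wider at 8 h. The log2 difference was -3.57 ± 0.19 at 8 h, a fold of 11.9, and -0.73 ± 0.19 at 1 h, a fold of 1.66. In the group at pH 6 and 8 h replicate 2 was well above the other arrays, and without it the difference at 8 h was -3.90.

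AT2G22880 was lower at pH 6 at both times, and close to the lower end of the signal range at pH 6 after 8 h. It had 0.590, 2.31 and 3.66 at pH 6 after 8 h, against 58.3, 50.2 and 63.2 at pH 4.5. The signals after 1 h were 29.2, 6.62 and 18.2 at pH 6, against 64.9, 43.7 and 43.5 at pH 4.5. All pH 6 arrays were below all pH 4.5 arrays of the same time. The log2 difference was -3.35 ± 0.31 at 8 h and -1.45 ± 0.31 at 1 h. The mean at pH 6 and 8 h, 2.19 ± 1.54, is under 10.4, the signal to which the low-signal filter corresponds, so the size of the difference at 8 h depends on the constant of 3.92 added before log2. With constants of 1 and 16 it was -4.32 and -2.01, and the difference at 1 h was -1.63 and -1.01. Without replicate 2 of pH 6 at 1 h, the array with 6.62, the difference at 1 h was -0.99.

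AT5G64870 was low at pH 6 at both times. Its signals after 8 h were 8.66, 7.52 and 2.001 at pH 6, against 38.2, 29.8 and 24.6 at pH 4.5. After 1 h they were 6.37, 7.62 and 1.04 at pH 6, against 31.2, 41.1 and 24.1 at pH 4.5. The groups of the 2 times overlapped within each pH and those of the 2 pH values did not. The log2 difference was -1.86 ± 0.33 at 8 h and -2.08 ± 0.33 at 1 h. All 6 arrays at pH 6 were under the signal of 10.4, and with constants of 1 and 16 the difference at 8 h was -2.32 and -1.09 and that at 1 h was -2.68 and -1.19.

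Among the 7 genes, the 3 arrays at pH 6 lay wholly above those at pH 4.5 in 1 gene and wholly below in 6 after 8 h. Over all 15922 probe sets tested, such a separation was found upwards in 22.3% and downwards in 18.9%. After 1 h, 2 of the genes lay wholly above and 4 wholly below, beside 16.5% and 11.5% of all probe sets. The median log2 difference over the 7 genes was -1.86 at 8 h and -0.73 at 1 h, beside 0.030 and 0.051 over all probe sets. These counts follow from how the genes were chosen. They show that the set is not of one kind: STZ, AR781, AT1G19020, AT2G22880 and AT5G64870 had lower means at pH 6 at both times, while WRKY22 was higher at both and WRKY53 changed sides.

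The pH effect at 8 h minus that at 1 h, on the log2 scale, was -2.84 ± 0.27 for AT1G19020, -2.54 ± 0.25 for AR781, -1.91 ± 0.44 for AT2G22880 and -1.69 ± 0.16 for WRKY53. With constants of 1 and 16 it was -2.74 and -1.98 for AR781, -2.69 and -0.995 for AT2G22880, and -1.74 and -1.52 for WRKY53. It was smaller in size for WRKY22 (-0.43 ± 0.18), STZ (-0.28 ± 0.19) and AT5G64870 (0.22 ± 0.47). The value of AT5G64870 had a standard error larger than itself and turned to -0.16 when replicate 3 of pH 6 at 1 h was left out. The root marker EXPA7 also differed at 8 h, with 134.9 ± 8.41 at pH 6 and 67.8 ± 11.9 at pH 4.5 (log2 difference 0.96 ± 0.15, limma adjusted p = 0.000105), while EXPA18 had 112 ± 8.49 at pH 6 and 94.6 ± 19.1 at pH 4.5 (0.26 ± 0.14, adjusted p = 0.197). Among the green markers at 8 h, PSAN was lower at pH 6 (-1.11 ± 0.36, adjusted p = 0.0261), with a pH 6 mean of 6.11 that is under 10.4. LHCB4.1 (0.45 ± 0.17, adjusted p = 0.0542) and RCA (0.37 ± 0.20, adjusted p = 0.179) did not pass, though all their pH 6 arrays lay above pH 4.5. The part of such marker differences in the values of the 7 genes was not tested.

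**Figure D2:**
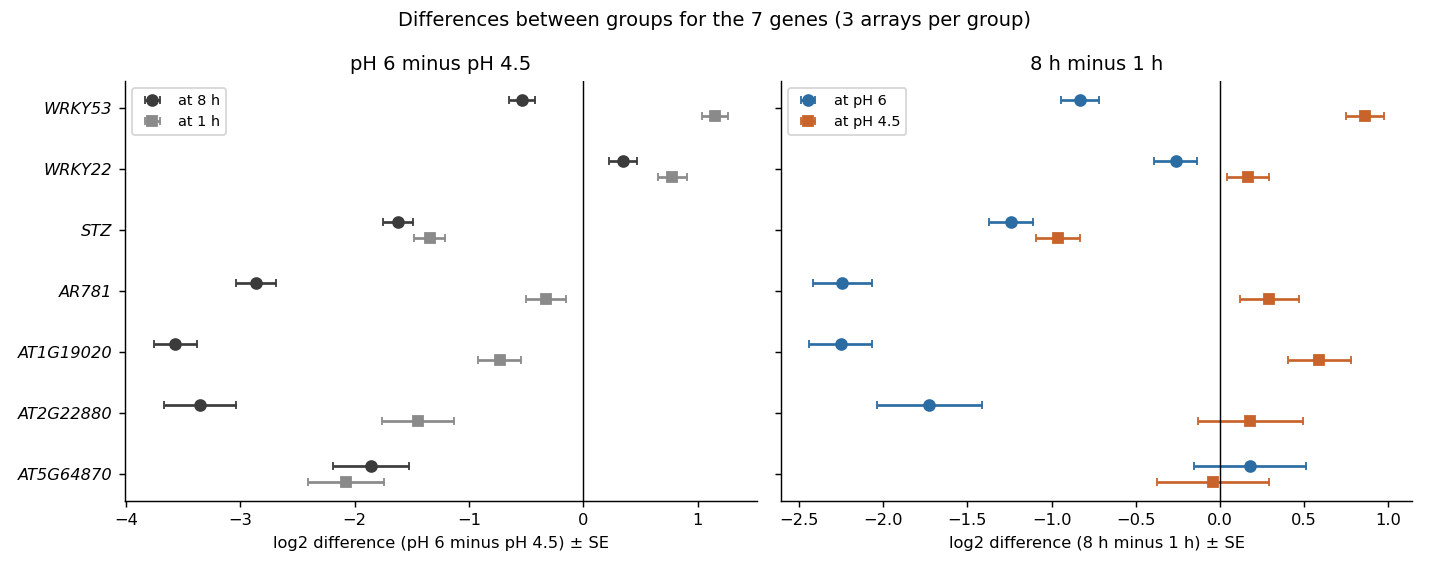
Log2 differences of the 7 genes with their standard errors, between the pH values (left, pH 6 minus pH 4.5, dark circles at 8 h and grey squares at 1 h) and between the times (right, 8 h minus 1 h, circles at pH 6 and squares at pH 4.5). WRKY53 lies on opposite sides of 0 at the 2 times, and AR781, AT1G19020 and AT2G22880 lie further below 0 at 8 h than at 1 h.

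Comparing the times within each pH uses the same arrays as the pH comparisons, so the values below are another view of the levels already given. At pH 6, 6 of the 7 genes had all 8 h arrays below all 1 h arrays and 0 had them above, beside 16.8% of all probe sets in either direction. The log2 difference, 8 h minus 1 h, at pH 6 was -2.25 ± 0.19 for AT1G19020, -2.24 ± 0.18 for AR781 and -1.73 ± 0.31 for AT2G22880. It was -1.24 ± 0.13 for STZ, -0.83 ± 0.11 for WRKY53 and -0.26 ± 0.13 for WRKY22, while AT5G64870 had overlapping groups (0.18 ± 0.33). With constants of 1 and 16 the value of AT2G22880 was -2.50 and -0.85, and that of AR781 was -2.44 and -1.71. Measures of the arrays also separated the times at pH 6 without overlap: the median signal was 39.1 ± 0.656 at 8 h and 40.1 ± 0.182 at 1 h, and the 3' to 5' ratio of GAPDH was 0.980 ± 0.107 at 8 h and 1.16 ± 0.0270 at 1 h. The ratio of ubiquitin was 1.23 ± 0.107 at 8 h and 1.09 ± 0.0131 at 1 h, and the mean hybridisation spike-in signal was 915 ± 302 at 8 h and 632 ± 47.0 at 1 h. At pH 4.5 only the median signal, of these 4, separated the times (39.1 ± 0.826 at 8 h and 38.2 ± 0.0589 at 1 h). Their part in the time differences was not tested, except that centring on the median moved those of the 7 genes by 0.034 at pH 6 and 0.029 at pH 4.5.

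At pH 4.5, 2 genes, WRKY53 and AT1G19020, had all 8 h arrays above all 1 h arrays, beside 21.0% of all probe sets, and 1 gene, STZ, had them below, beside 17.8%. The log2 difference at pH 4.5 was 0.86 ± 0.11 for WRKY53, 0.59 ± 0.19 for AT1G19020 and -0.96 ± 0.13 for STZ. For AR781 (0.29 ± 0.18), AT2G22880 (0.18 ± 0.31), WRKY22 (0.17 ± 0.13) and AT5G64870 (-0.04 ± 0.33) the groups overlapped. Without replicate 1 of pH 4.5 at 1 h, 5 genes had groups that did not overlap in this comparison, against 3 with all arrays. Such a count can only stay or rise when an array is left out. STZ was thus lower at 8 h at both pH values, and WRKY53 was lower at 8 h at pH 6 and higher at 8 h at pH 4.5. The 3 green markers were lower at 8 h at both pH values by limma's test, among them PSAN (-2.34 ± 0.36 at pH 6, adjusted p = 0.000129, and -1.14 ± 0.36 at pH 4.5, adjusted p = 0.0253). EXPA7 was lower at 8 h at pH 4.5, with 67.8 ± 11.9 at 8 h and 100.8 ± 18.4 at 1 h (-0.55 ± 0.15, adjusted p = 0.0145), and at pH 6 its log2 difference was 0.050 ± 0.15 (adjusted p = 0.866). The part of these markers in the time differences was not tested.

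Replicate spread differed between the genes. The residual standard deviation of the log2 signal was 0.10 for WRKY22, 0.12 for WRKY53, 0.19 for STZ, 0.26 for AR781, 0.31 for AT1G19020, 0.49 for AT2G22880 and 0.50 for AT5G64870, beside a median of 0.17 over all probe sets tested. The 2 genes with the widest spread are those with the lowest signals. In the group at pH 6 and 1 h, STZ, AR781 and AT2G22880 all had their highest signal in replicate 1 and their lowest in replicate 2, with log2 deviations from the group mean of 0.27, 0.49 and 0.74 in replicate 1 and of -0.32, -0.35 and -0.91 in replicate 2. In the same group AT5G64870 and WRKY53 were highest in replicate 2.

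Over the 12 arrays, which fall into the 4 groups, STZ, AR781, AT1G19020, AT2G22880 and AT5G64870 correlated with each other at r = 0.60 to 0.97 over their 10 pairs. The highest was between AR781 and AT1G19020. WRKY22 and WRKY53 correlated at 0.63, and WRKY22 ran opposite to AT5G64870 at -0.78. These values mostly restate the differences between the group means, and all genes share the arrays and their scaling. After the group means were subtracted, r among the same 10 pairs ranged from -0.40 to 0.81, with 3 pairs below 0, and AR781 with AT2G22880 (0.81) and STZ with AT2G22880 (0.78) were the highest. Both pairs had the array order in the group at pH 6 and 1 h described above.

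**Figure D3:**
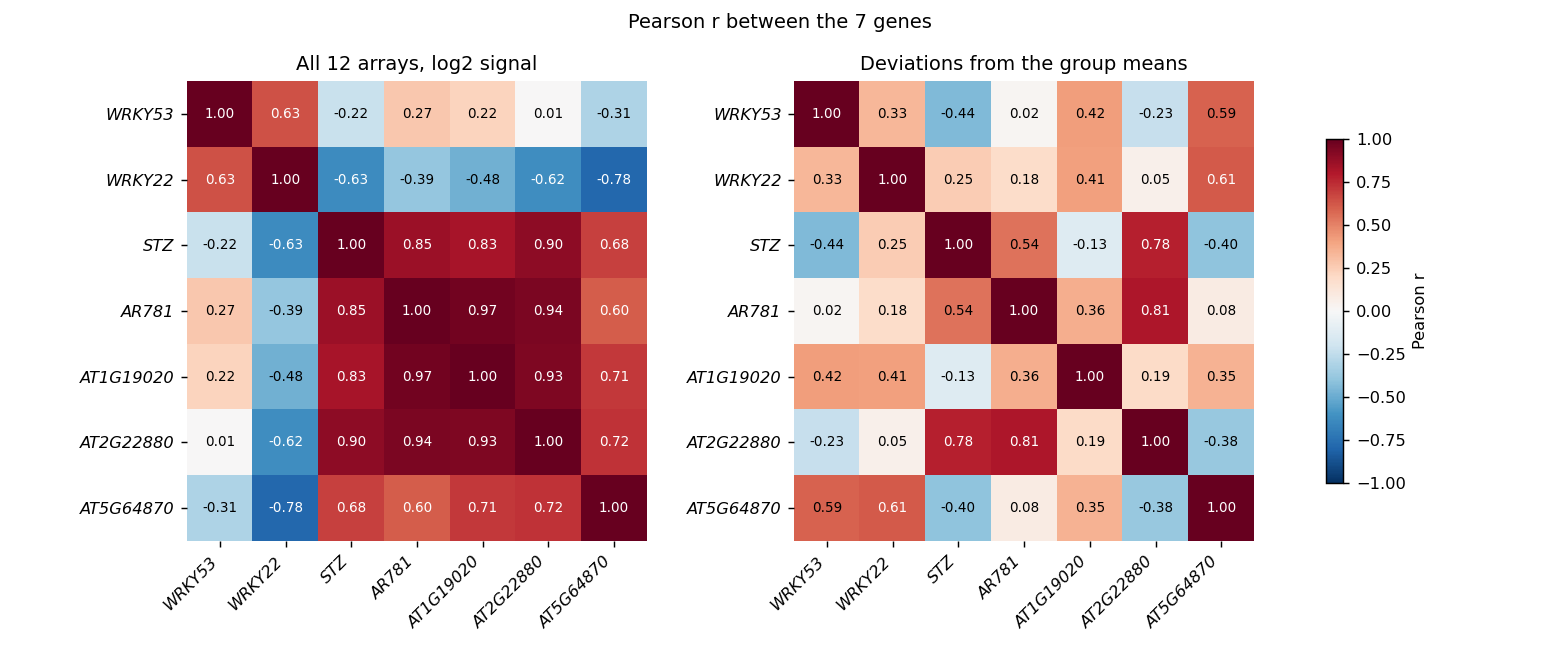
Pearson r between the log2 signals of the 7 genes over the 12 arrays (left) and between their deviations from the group means (right); each cell is 1 pair of genes, coloured from -1 (blue) to 1 (red). On the left the last 5 genes form a block with r of 0.60 or more, which is not kept on the right.

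For each gene the probe sets most like it were taken as the 2 with the highest r over the 12 arrays among the 8787 other single-gene probe sets tested. They were picked for likeness on these same arrays. Similar group values in them follow from that choice and are only a description. For WRKY53 these were PRA8 (0.93) and AT1G26380 (0.92). AT1G26380 had 27.9 ± 6.28 at pH 6 and 76.2 ± 3.22 at pH 4.5 after 8 h, and 114 ± 6.97 at pH 6 and 30.99 ± 3.01 at pH 4.5 after 1 h, so it also changed sides. WRKY22 was nearest to AT1G33840 (0.95) and AT3G24670 (0.94), and AT1G33840 had 409 ± 51.2 at pH 6 and 219.9 ± 30.9 at pH 4.5 after 8 h, and 668 ± 77.9 at pH 6 and 153 ± 27.6 at pH 4.5 after 1 h. STZ was nearest to AT1G19380 (0.99) and AT2G36220 (0.98). AT1G19380 stood at 155 ± 18.5 at pH 6 and 335 ± 19.5 at pH 4.5 after 8 h, and at 316 ± 20.4 at pH 6 and 579.6 ± 31.7 at pH 4.5 after 1 h.

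The nearest probe sets of AR781 were AT5G35735 (0.98) and AT5G25930 (0.98), and those of AT1G19020 were AT2G18690 (0.98) and again AT5G25930 (0.98). AT2G18690 was at 200.4 ± 27.3 at pH 6 and 1246 ± 154 at pH 4.5 after 8 h, and at 723 ± 95.4 at pH 6 and 884 ± 211 at pH 4.5 after 1 h. AT2G22880 was nearest to AT4G24380 (0.97) and WRKY6 (0.97), and AT5G64870 to AT2G27500 (0.98) and AT4G16920 (0.96). AT2G27500 had 74.2 ± 12.3 at pH 6 and 138 ± 14.7 at pH 4.5 after 8 h, and 74.6 ± 8.62 at pH 6 and 136 ± 7.78 at pH 4.5 after 1 h. After subtraction of the group means r was lower in every pair. It was highest at 0.92 for AR781 with AT5G35735 and 0.89 for AT5G64870 with AT2G27500, and lowest at 0.11 for WRKY22 with AT1G33840. The likeness of this last pair therefore lay in the group means. In the other pairs it ranged from 0.15 (STZ with AT2G36220) to 0.73 (STZ with AT1G19380), so the group means carried much of the likeness in several pairs.

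Related genes, taken from lists by family or function, were tested with limma on the whole array. The lists were chosen with earlier results of these data known. Their counts and p-values below are therefore not independent of these arrays. The lists held WRKY factors, ZAT-type zinc-finger proteins, early immune receptors and kinases, early ERF, CBF, MYB and NAC regulators, jasmonate genes and genes of the defence response. Of 166 loci, 3 belong to the 7 genes, 13 others have a named probe set and 10 of these passed the filter, so most of these families are not analysed here. WRKY42, EFR, the receptor for a bacterial elongation factor, and PDF1.2, a defensin, were under the filter. No other ZAT-type gene and no jasmonate gene had a named probe set.

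After 8 h, 4 of the 10 related genes were lower at pH 6 and 0 were higher, beside 13.2% and 14.5% of all probe sets, and the median log2 difference was -0.32. Of 4 other WRKY genes, 2 were lower. WRKY6, a factor of senescence and phosphate responses, had 62.4, 65.0 and 74.3 at pH 6, against 189.9, 163 and 176 at pH 4.5, with no overlap (log2 difference -1.34 ± 0.11, limma adjusted p = 3.72e-08). WRKY20 (-0.40 ± 0.14, adjusted p = 0.0482) was near the threshold and lost its call in 11 of 20 other settings. WRKY47 (-0.24 ± 0.15, adjusted p = 0.264) and ZAP1, which is WRKY1 (-0.18 ± 0.098, adjusted p = 0.184), did not pass. The other 2 genes that fell were PUB24 (-1.03 ± 0.14, adjusted p = 2.07e-05), a ubiquitin ligase that dampens immune signalling, and BIK1 (-0.60 ± 0.13, adjusted p = 0.00223), a kinase that acts directly behind immune receptors.

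After 1 h, 2 of the 10 related genes were higher at pH 6 and 3 were lower, beside 5.21% and 5.51% of all probe sets, and the median was -0.0053. WRKY6 was lower, with 101, 98.0 and 110 at pH 6 against 183, 167 and 144 at pH 4.5 (-0.65 ± 0.11, adjusted p = 0.000593), and was the 1 called of the 4 WRKY genes. BIK1 was higher at pH 6, with 301, 258 and 207 against 179, 182 and 145 at pH 4.5 (0.58 ± 0.13, adjusted p = 0.00704). PUB22, a close relative of PUB24, was also higher (0.51 ± 0.13, adjusted p = 0.0142). PUB19 (-1.45 ± 0.41, adjusted p = 0.0262) and PUB23 (-0.36 ± 0.11, adjusted p = 0.0443) were lower, and PUB19 had 2 of its 3 arrays at pH 6 under the signal of 10.4. Over 20 other settings PUB23 lost its call in 11 and PUB19 in 7. Without 1 of the arrays the count of 5 fell to 2 (replicate 1 of pH 6 or replicate 2 of pH 4.5, both at 1 h) or 3 (replicates 1 or 3 of pH 4.5 at 1 h). Without any other single array it was 4 or 5.

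The change of the pH effect between the times was tested directly in the related genes, and 4 of 10 passed, all with a lower value at 8 h, beside 8.27% of all probe sets lower and 7.15% higher. BIK1 had a difference between the effects of -1.18 ± 0.19 (adjusted p = 0.000195), and its pH 6 arrays were wholly below pH 4.5 at 8 h and wholly above at 1 h, as in WRKY53. PUB24 (-1.08 ± 0.20, adjusted p = 0.000876) and WRKY6 (-0.69 ± 0.16, adjusted p = 0.00557) passed too. PUB22 (-0.56 ± 0.18, adjusted p = 0.0421) passed here and lost its call in 12 of 19 other settings. ORA47, an ERF-type factor, did not pass in any of these comparisons and had means of 9.38 to 16.4 in the 4 groups.

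Between the times, 6 of the 10 related genes were lower at 8 h at pH 6 and 0 were higher, beside 10.6% and 8.86% of all probe sets. The 6 were WRKY6, WRKY47, BIK1, PUB22, PUB23 and PUB24, at log2 differences of -0.59, -0.53, -0.59, -0.66, -0.53 and -0.82. At pH 4.5, 2 were higher at 8 h and 2 lower, beside 12.5% and 11.1%. BIK1 (0.59 ± 0.13, adjusted p = 0.00278) and ZAP1 (0.38 ± 0.098, adjusted p = 0.00746) were the higher ones, and PUB23 (-0.79 ± 0.11, adjusted p = 3.04e-05) and PUB19 (-1.15 ± 0.41, adjusted p = 0.0481) the lower ones.

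**Figure D4:**
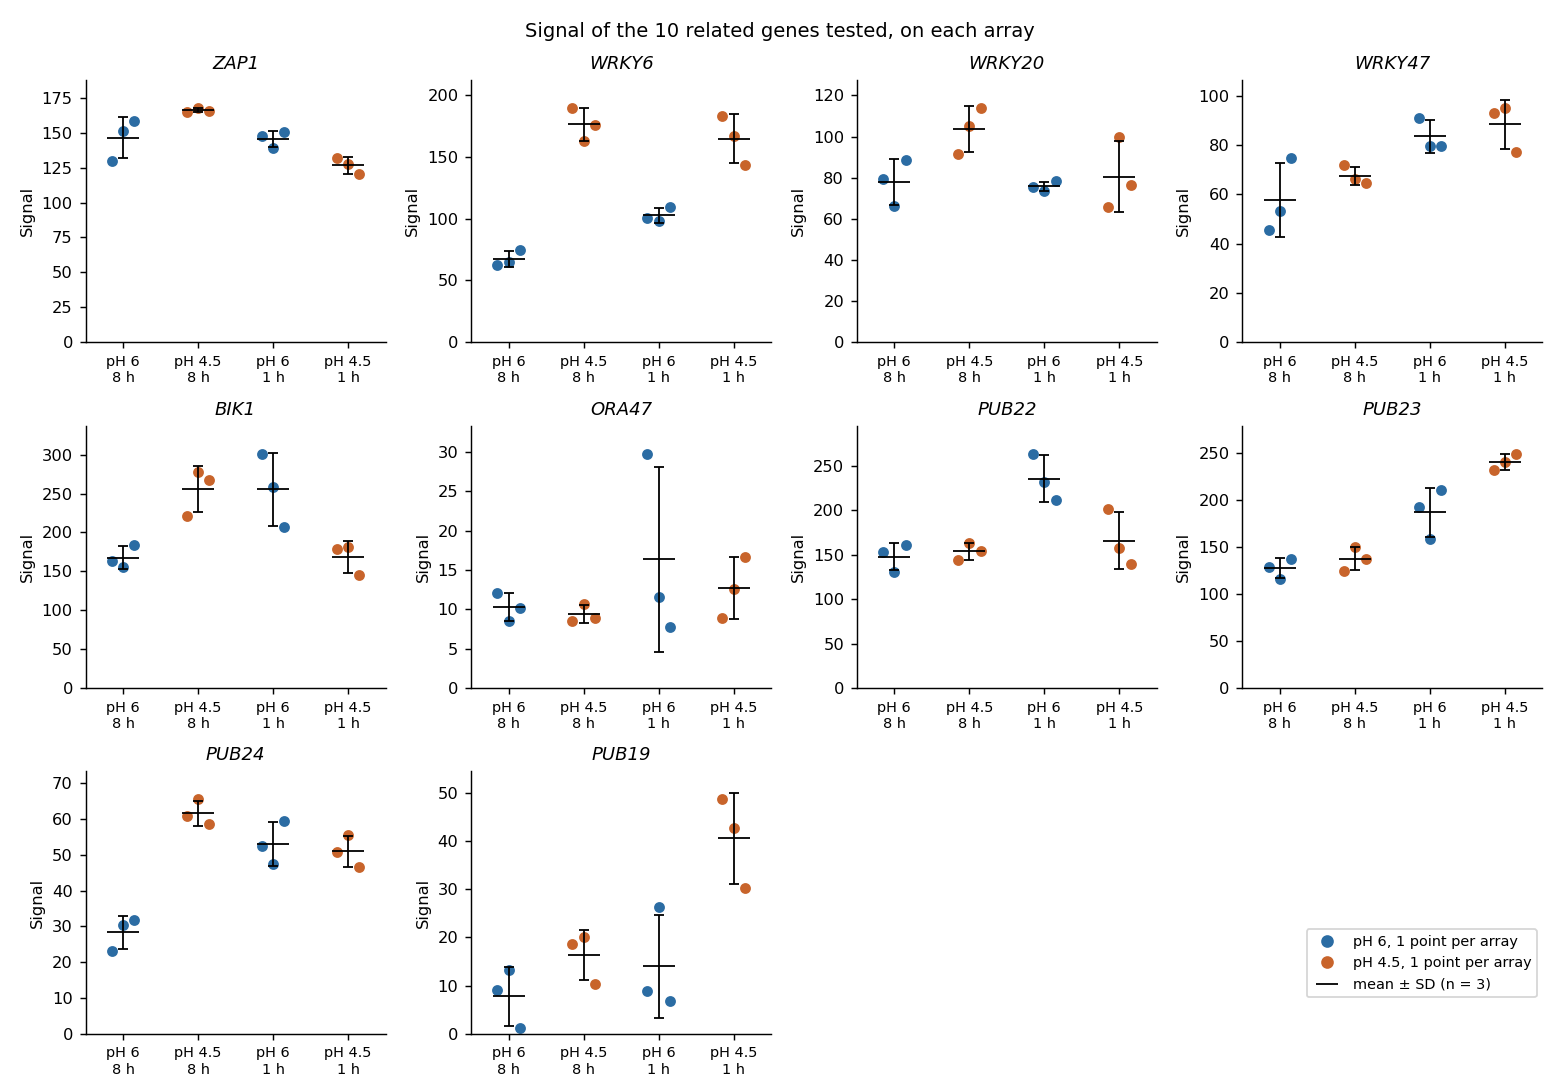
Signal (linear scale, axis from 0) of the 10 related genes tested, on every array, with groups along the x axis; points are single arrays and black bars the mean ± SD of 3 arrays. WRKY6 has its pH 6 arrays below pH 4.5 at both times, BIK1 has them below at 8 h and above at 1 h, and PUB24 separates at 8 h but not at 1 h.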

How the data were processed

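Total RNA was labelled with biotin by the 3' IVT Express procedure and hybridised to ATH1 arrays, per the labels' protocols. The authors deposited signal intensity on a linear scale, and the submitters' processing notes name the programs MAS5 and GCOS without a version. The file holds 22810 probe sets, 64 of them controls. Gene names came from the platform annotation, updated through the RefSeq table of assembly TAIR10.1, which matched 7 of 7 members. No coordinates are printed.

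From the deposited intensity, log2(signal + 3.92) was computed, the constant being 10% of the median signal, and the 15922 probe sets above the 30th percentile of the mean were tested. The fit had a mean for each of the 4 groups and 8 residual degrees of freedom, and used lmFit and eBayes of limma 3.58.1 (R 4.3.3) with the trend option. P-values are two-sided and adjusted by the Benjamini-Hochberg method over all probe sets, with a threshold of 0.05. The procedure was tested on simulated data. Python 3.11.15, numpy 2.4.6, pandas 2.3.3 and matplotlib 3.10.9 were used for the rest. Folds understate changes of signals near the constant.

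The members and lists were chosen with earlier results of these data known. Named besides the members are the 2 most alike genes of each and, per related list, up to 4 called genes in each direction and pH comparison. Genes that did not pass, the time comparisons and the tissue markers were named after their values were seen. The lists of VQ motif and flotillin proteins, built from gene symbols and synonyms alone, held no member and had no named probe set. The list of DUF1645 proteins could not be built from the reference tables. Over all probe sets tested, same-numbered replicates of different groups deviated together weakly at most (r = -0.066 to 0.17, over 0.1 in 4 of 12 pairs). The numbers were therefore not used to pair samples. Single genes could differ: AT5G64870 and PUB19 had their lowest signal in replicate 3 in each of the 4 groups. With the replicate number as a block, the standard error of AT5G64870 for pH at 8 h was 0.24, against 0.33. Other constants, filters, scalings and fits were run as alternatives.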

Additional observations from a re-analysis of the deposited data

Results flagged for a closer look

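WRKY53 drew attention because its pH 6 arrays were all below pH 4.5 at 8 h and all above at 1 h, a difference between the pH effects of -1.69 on the log2 scale. That difference was not tested, since the gene was chosen with it known. The same difference passed limma's test in BIK1 (-1.18), PUB24 (-1.08), WRKY6 (-0.69) and PUB22 (-0.56), of 10 related genes. Their lists were also chosen with earlier results of these data known, so these calls are no independent support for WRKY53. Groups of 3 arrays are too small for a test of single outlying arrays.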

How the results depend on the processing

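Over 693 log2 differences of the 7 genes under other settings, 675 moved by less than the replicate spread of their gene. Of the 18 that moved by more, 15 did so with another constant and 3 were those of AT1G19020 without replicate 2 of pH 6 at 8 h. Many of the 675 could not move. Other fits, no filter and leaving out an array of a group not compared keep the group means as they are. Genes with a wide spread also count as unmoved more easily, so the share is no measure of robustness. Direction changed only in AT5G64870, for the time differences and the difference between the pH effects, each without 1 array. With every array centred on its median, the share of higher calls among all probe sets at 1 h was 33.7%, against 48.6% as deposited, and for the difference between the pH effects 56.7% against 46.4%. The majority also turned between the times, with 53.5% higher after centring against 45.6% at pH 6, and 47.6% against 53.1% at pH 4.5. No direction changed in the 7 genes. The count of related genes called at 1 h, 5 in the report, was 3 with no filter on low values and 3 with no intensity trend. Without 1 array, the related genes called numbered 3 to 5 at 8 h, 2 to 5 at 1 h, 3 to 5 for the difference between the pH effects, 5 to 6 between the times at pH 6 and 3 to 5 at pH 4.5. Probe sets called then numbered 3528 to 4484, 1224 to 1887, 2010 to 2441, 2245 to 3149 and 2852 to 3991 in the same order. Genes of the 7 without overlap numbered 7 at 8 h, 6 to 7 at 1 h, 6 between the times at pH 6 and 3 to 5 at pH 4.5. Leaving out an array cannot make separate groups overlap, so these counts of the 7 genes could only stay or rise. With the replicate number as a block, 4582 probe sets were called at 8 h and 1839 at 1 h, and 5 related genes at each time.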
